A study of Mus musculus with 54 samples.

Results

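Testes of second-generation (F2) male mice were compared between a pair of mirror-image crosses that differ in which parent came from the low-dose group of a pharmaceutical cocktail. In the maternal dose 1 cross the mother came from the dose 1 group and the father was a control. In the paternal dose 1 cross the father came from the dose 1 group and the mother was a control. The comparison uses 3 libraries of each cross, labelled A, B and C, which are 6 of the 54 libraries of the series and were chosen by these labels alone. Dose 1 was drinking water with ethinyl-estradiol at 2.25 ng/L, diclofenac at 22.5 ng/L, ibuprofen at 11.3 ng/L and its metabolite 2-hydroxyibuprofen at 90 ng/L, given to pregnant females and then to their offspring, starting 8.5 days post-coitum and ending at sacrifice, which for males was at 35 days post-partum. Control water held 0.001% ethanol. The labels state no treatment of the F2 animals themselves. They do not say whether the libraries of a cross came from separate animals or litters, so litter and cross cannot be told apart. The testis p-values measure the spread between libraries of a cross, estimated jointly over all 18 F2 testis libraries. A control cross, with both parents from the control group, is given beside named genes. The dose 2 crosses (ethinyl-estradiol at 45 ng/L, diclofenac at 112 ng/L, ibuprofen at 113 ng/L and 2-hydroxyibuprofen at 225 ng/L) and the F2 ovary libraries of the dose 1 crosses, taken at 30 days post-partum where the F2 testes were taken at 35, serve as further comparisons.

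The testis of a young male holds spermatogonia, meiotic spermatocytes and haploid spermatids, carried by Sertoli cells in tubules, with Leydig cells making testosterone between the tubules. A father passes on a sperm genome and a small load of RNA, while a mother also provides the egg cytoplasm, the uterus and milk. Mirror-image crosses are the usual design for asking which of these routes carries an effect of an exposed parent. Many loci of the testis give long noncoding RNAs (lncRNAs), and some abundant RNAs of a cell, such as Malat1 and the ribosomal RNA precursor, stay in the nucleus.

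Total gene counts were 36.1 to 39.6 M in the maternal dose 1 libraries, 37.6 to 42.6 M in the paternal dose 1 libraries and 37.0 to 43.5 M in the control cross. No pair of replicate libraries in these crosses agreed within counting error (chi-square of at least 7.43 per degree of freedom). Paternal dose 1 A stood apart from the other F2 testis libraries on the second principal component, at 34.9, where the other 17 lay between -15.5 and 13.4. Among the 6 libraries alone, maternal dose 1 A stood apart on the first component, at -45.2, with the others between -0.913 and 21.2. Defining testis genes were abundant in both crosses, with the protamine gene Prm2 between 3285 and 3951 CPM (the count of a gene per 1 M counts of its library) in maternal dose 1 and between 3057 and 3779 CPM in paternal dose 1. Over all 9 libraries of these crosses and the control cross, the haemoglobin genes Hba-a1, Hba-a2, Hbb-bs and Hbb-bt had 0 counts in all. The labels do not state how reads that match several genes were counted, so this 0 is not read as an absence of blood. Of 7 listed red blood cell genes, 2 could be tested. Their summed level was 15.8 to 17.4 CPM in maternal dose 1 and 14.4 to 16.8 CPM in paternal dose 1.

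Few genes passed the test between the 2 parental sides. Rn45s, Ube4bos3, Malat1, Mir6236 and Gins1 were higher in the maternal dose 1 cross, and Htatsf1, Gm17089 and Sirt2 were lower. These 8 genes were the ones of 19379 tested that passed an adjusted p of 0.05 in edgeR's quasi-likelihood test (0.0413% of genes, 0.0258% higher and 0.0155% lower). At an unadjusted p under 0.05 there were 2237 genes, 1197 higher and 1040 lower, where 969 would be expected if no gene differed. The count that passed need not be a count of all genes that differ. Genes can vary together across the same 6 libraries, so the excess over 969 does not settle how many differ. In 16.3% of all genes the maternal dose 1 libraries did not overlap the paternal dose 1 libraries (7.93% higher and 8.33% lower), and this held for all 8. Over all genes the log2 fold change had a median of -0.0032.

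Of the 8 genes, 5 do not encode a protein. Malat1, Ube4bos3 and Gm17089 are annotated as lncRNAs and Mir6236 as a miRNA locus. Rn45s, the locus of the ribosomal RNA precursor, has no RefSeq class. Of the 19306 genes tested that have a class, 13.4% were not protein coding. Gins1, Htatsf1 and Sirt2 encode proteins. In every one of the 12 other ways of processing that were tried, all 8 kept their direction. Because their libraries do not overlap, this was nearly fixed beforehand. The call was kept less often. Rn45s passed in 10 of the 12, Ube4bos3 in 7 and Malat1 in 6. Mir6236, Htatsf1 and Gm17089 each passed in 5, and Gins1 and Sirt2 each in 4.

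**Figure D1:**
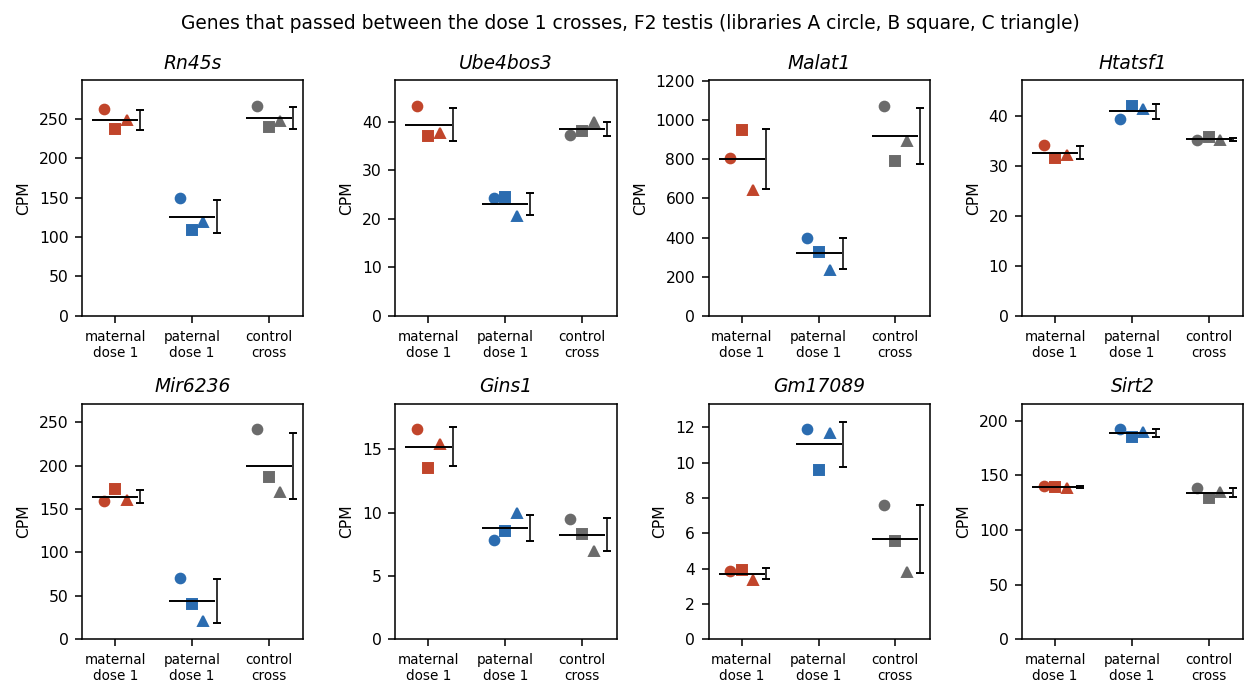
Level in CPM of the 8 genes that passed between the dose 1 crosses, for each F2 testis library (points), with the mean (line) and SD (bar) of each cross of 3 libraries. The maternal dose 1 points do not overlap the paternal dose 1 points in any of the 8 panels, and for Rn45s, Ube4bos3, Malat1, Mir6236 and Sirt2 they lie near or among the control cross points.

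Rn45s is the locus of the precursor that is cut into the mature ribosomal RNAs. Whether its reads came from the precursor or from the mature RNAs was not tested. Rn45s was at 262, 237 and 248 CPM in maternal dose 1, against 149, 109 and 119 CPM in paternal dose 1. In the control cross it was at 266.5, 239 and 246.5 CPM. All maternal dose 1 libraries were above all paternal dose 1 libraries and inside or close to the range of the control cross. The mean was 248.7 ± 12.6 CPM in maternal dose 1 and 125.4 ± 21.0 CPM in paternal dose 1 (SD, n = 3 each). The log2 fold change was 0.99 ± 0.10 (SE; edgeR adjusted p = 0.000424). Rn45s passed without each of the 6 libraries in turn, with adjusted p between 3.69e-05 and 0.00833. With the 6 libraries fitted alone its adjusted p was 0.0543, and with all 27 testis libraries of both generations 0.162.

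Malat1 is a long RNA of nuclear speckles, where it is known to bind splicing factors. It was at 807, 950.3 and 642 CPM in maternal dose 1, against 396, 326 and 237 CPM in paternal dose 1 and 1073, 793 and 890.4 CPM in the control cross. Every maternal dose 1 library was above every paternal dose 1 library. This was a log2 fold change of 1.32 ± 0.20 (SE; edgeR adjusted p = 0.0187). It did not pass without maternal dose 1 A (adjusted p = 0.0635), maternal dose 1 B (0.131), paternal dose 1 B (0.123) or paternal dose 1 C (0.137). The start of the gene is shown because Malat1 is 1 of the 3 lncRNAs that passed. The RefSeq window of GRCm38.p6 (chr19:5802623-5802922, minus strand, from 250 bases before the start to 50 after it) holds 47.0% G or C and 10 CpG sites.
Malat1: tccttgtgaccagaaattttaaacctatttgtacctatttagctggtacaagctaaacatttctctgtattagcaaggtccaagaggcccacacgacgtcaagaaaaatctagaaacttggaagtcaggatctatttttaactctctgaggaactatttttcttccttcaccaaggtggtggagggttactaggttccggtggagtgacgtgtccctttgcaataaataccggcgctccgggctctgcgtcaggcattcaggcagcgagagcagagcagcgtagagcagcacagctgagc

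Mir6236, a miRNA locus, was at 159, 172.5 and 160.1 CPM in maternal dose 1, against 71.0, 40.8 and 21.1 CPM in paternal dose 1 and 242, 187 and 169 CPM in the control cross. The paternal dose 1 libraries were well below the others and differed among themselves. Maternal over paternal, the log2 fold change was 1.89 ± 0.32 (SE; edgeR adjusted p = 0.0478). It passed without paternal dose 1 A (adjusted p = 0.00323) and did not pass without any of the other 5 libraries (0.0861 to 0.170). Libraries of this kind do not measure mature miRNAs, and which RNA the reads at this locus came from was not tested. The annotated mature product is given to identify the locus (RefSeq, GRCm38.p6, chr9:110281353-110281371, plus strand, seed bases 2 to 8 in capitals).
mmu-miR-6236: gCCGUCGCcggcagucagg

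Lars2, which encodes the mitochondrial leucyl-tRNA synthetase, did not pass. It was at 3069, 2682 and 1982 CPM in maternal dose 1, against 1160, 532 and 292 CPM in paternal dose 1 and 3937, 3165 and 3047 CPM in the control cross. The crosses did not overlap. The log2 fold change was 1.96 ± 0.35 (SE; edgeR adjusted p = 0.0533), and the adjusted p was 0.00112 without paternal dose 1 A. Reads of ribosomal RNA origin can match several places in the genome, and the labels do not state how such reads were counted. The counts of Rn45s, Mir6236 and Lars2 are therefore reported as uncertain. Levels also varied among the 3 control libraries of first-generation (F1) testis, which were scaled separately. There Malat1 ran from 104 to 468 CPM and Mir6236 from 28.3 to 116.4 CPM. Lars2 ran from 381.5 to 1538 CPM and Rn45s from 151.7 to 226.6 CPM in those libraries.

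Malat1, Rn45s and Lars2 belong to a list of 14 nuclear and ribosomal precursor RNAs, all tested, of which 2 passed, both higher in maternal dose 1. At an unadjusted p under 0.05, 6 were higher and 0 lower (42.9% of the list, against 6.18% higher and 5.37% lower over all genes). The median log2 fold change was 0.09, against -0.0032 over all genes. Kcnq1ot1, a paternally expressed lncRNA that silences its imprinted neighbours, was at 187, 161 and 129 CPM in maternal dose 1 and at 141, 122 and 106 CPM in paternal dose 1, overlapping groups with an edgeR adjusted p of 0.308. Neat1, the scaffold of paraspeckles, averaged 110.8 ± 9.82 CPM in maternal dose 1 and 99.1 ± 12.6 CPM in paternal dose 1 (SD, n = 3 each). Tug1, Norad and Firre, further long noncoding RNAs, overlapped between the crosses, with log2 fold changes of -0.10, -0.03 and 0.0035. Summed over the list, the maternal dose 1 libraries held 3397 to 4736 CPM and the paternal dose 1 libraries 1166 to 2245 CPM. Without Lars2 the sums were 1415 to 1771 CPM in maternal dose 1 and 873 to 1084 CPM in paternal dose 1. These sums still hold the 2 members that passed. Malat1 had 641.6 to 950.3 CPM in maternal and 236.6 to 396.4 CPM in paternal dose 1. Rn45s had 236.5 to 261.7 CPM in maternal and 108.6 to 148.9 CPM in paternal dose 1. Of the 14 members, 9 had a positive and 5 a negative difference. The list was chosen with earlier results of these data known. The list's median was between 0.11 and 0.18 without any 1 library.

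Ube4bos3, an antisense lncRNA gene that lies within Ube4b, was at 43.3, 37.1 and 37.7 CPM in maternal dose 1, against 24.3, 24.5 and 20.5 CPM in paternal dose 1 and 37.2, 38.1 and 40.0 CPM in the control cross. No library of paternal dose 1 reached the lowest of maternal dose 1. Its log2 fold change was 0.77 ± 0.11 (SE; edgeR adjusted p = 0.0151). It did not pass without maternal dose 1 A (adjusted p = 0.0635), paternal dose 1 B (0.0598) or paternal dose 1 C (0.137). Ube4b, the ubiquitin ligase gene on the opposite strand, was at 49.4, 51.3 and 49.7 CPM in maternal dose 1 and 53.2, 53.8 and 54.8 CPM in paternal dose 1, a log2 fold change of -0.11 (edgeR adjusted p = 0.445). The strand setting of the counting is not given, so reads of the pair may be exchanged. In the F2 ovary libraries Ube4bos3 reached at most 0.0449 CPM. The window around its start is shown as the second lncRNA start of the comparison (RefSeq, GRCm38.p6, chr4:149334389-149334688, plus strand). It holds 50.7% G or C and 2 CpG sites, where the median of 32851 RefSeq windows is 7 CpG sites.
Ube4bos3: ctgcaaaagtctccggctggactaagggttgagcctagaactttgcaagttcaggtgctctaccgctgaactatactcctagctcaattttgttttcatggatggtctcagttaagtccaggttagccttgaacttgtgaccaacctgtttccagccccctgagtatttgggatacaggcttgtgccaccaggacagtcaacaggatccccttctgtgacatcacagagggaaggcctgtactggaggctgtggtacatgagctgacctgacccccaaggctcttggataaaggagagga
The letters TATAAA and the palindromic estrogen response element were searched on both strands, and neither is in the Malat1 or the Ube4bos3 window. Of the 32851 RefSeq windows of this length, 13.6% hold TATAAA and 0.07% the estrogen response element.

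Gins1 encodes a subunit of the GINS complex, which helps unwind DNA at replication forks. Among the F2 testis libraries it was at 16.6, 13.6 and 15.4 CPM in maternal dose 1, against 7.87, 8.59 and 9.94 CPM in paternal dose 1 and 9.53, 8.30 and 6.96 CPM in the control cross. The maternal dose 1 libraries lay above all 6 others. In the further F2 testis crosses Gins1 averaged 11.7 CPM (maternal dose 2), 12.7 CPM (paternal dose 2) and 13.6 CPM (both parents from dose 2). The log2 fold change between the dose 1 crosses was 0.79 ± 0.14 (SE; edgeR adjusted p = 0.0478). It did not pass without any single one of the 6 libraries, with adjusted p between 0.0775 and 0.149. Of the 28 cell cycle and replication genes tested, Gins1 was the 1 that passed. The list had 10 positive and 18 negative differences (35.7% positive, against 49.2% over all genes), with a median of -0.08. Tyms, the thymidylate synthase gene, was next lowest in p, at 30.1, 26.5 and 22.4 CPM in maternal dose 1 and 22.0, 18.5 and 16.3 CPM in paternal dose 1 (edgeR adjusted p = 0.206).

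Sirt2 encodes a NAD-dependent deacetylase that is mainly cytoplasmic. Its libraries lay close together within each cross, at 140.5, 139.5 and 138 CPM in maternal dose 1, against 193, 185 and 189.7 CPM in paternal dose 1 and 138, 129.8 and 135 CPM in the control cross. The paternal dose 1 libraries were all above the other 6. The log2 fold change was -0.44 ± 0.08 (SE; edgeR adjusted p = 0.0478), and without any one of the 6 libraries it did not pass, with adjusted p between 0.0712 and 0.225. The other sirtuin genes, chosen after their values were seen, had log2 fold changes between -0.19 (Sirt7) and 0.07 (Sirt4), and none of them passed.

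Htatsf1, an X-linked gene whose product works in transcription elongation and splicing, was at 34.1, 31.6 and 32.2 CPM in maternal dose 1, against 39.3, 42.0 and 41.3 CPM in paternal dose 1 and 35.1, 35.7 and 35.1 CPM in the control cross. The change was small and the libraries were tight. Its log2 fold change was -0.33 ± 0.05 (SE; edgeR adjusted p = 0.0478). It still passed without paternal dose 1 A (adjusted p = 0.0305), and did not pass without any of the other 5 libraries (0.0635 to 0.225).

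Gm17089 is a lncRNA gene for which only the gene ID of the counts is used here, because the symbol is attached to a neighbouring gene in RefSeq. It was at 3.87, 3.94 and 3.35 CPM in maternal dose 1, against 11.9, 9.57 and 11.7 CPM in paternal dose 1 and 7.62, 5.56 and 3.81 CPM in the control cross. The groups did not overlap, and the log2 fold change was -1.57 ± 0.27 (SE; edgeR adjusted p = 0.0478). It was lost without any one of the 6 libraries, with adjusted p between 0.0657 and 0.225.

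Against the control cross, 5 of the 8 genes passed in paternal dose 1 and 1 in maternal dose 1. The 8 were chosen by a difference between these same dose 1 libraries, which favours passing here. These counts are therefore no separate support for a change on either side. These comparisons with the control cross share its 3 libraries, so their values are given side by side only. In paternal dose 1 against the control cross, 39 genes passed (0.201% of genes, with 9 or 0.0464% higher and 30 or 0.155% lower). In maternal dose 1 against the control cross, 2 passed (0.0103%). Of the 8 genes, Rn45s (log2 fold change -0.9996, edgeR adjusted p = 0.000352), Malat1 (-1.52, 0.00299), Mir6236 (-2.17, 0.0112), Ube4bos3 (-0.74, 0.0112) and Sirt2 (0.49, 0.0132) passed on the paternal side. Htatsf1 (0.21, 0.124), Gm17089 (0.96, 0.147) and Gins1 (0.09, 0.836) did not. On the maternal side Gins1 was the 1 of the 8 that passed (log2 fold change 0.88, edgeR adjusted p = 0.0474), and the other 7 had adjusted p between 0.751 and 0.988.

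1700001J04Rik, a lncRNA gene that is low in the control cross, was the other gene that passed against it in maternal dose 1. It was at 2.25, 1.53 and 1.40 CPM in maternal dose 1, at 3.03, 3.33 and 1.83 CPM in paternal dose 1 and at 0.209, 0.326 and 0.159 CPM in the control cross. The 2 dose 1 crosses overlapped, with a log2 fold change of -0.65 ± 0.33 (SE; edgeR adjusted p = 0.457). Cyp46a1, the cholesterol 24-hydroxylase gene, was at 12.7, 15.1 and 16.7 CPM in maternal dose 1 and 19.2, 19.6 and 23.5 CPM in paternal dose 1 (edgeR adjusted p = 0.231). Ezr, a linker of membrane and actin, was at 14.7, 18.6 and 20.5 CPM in maternal dose 1 and 21.2, 22.7 and 23.6 CPM in paternal dose 1 (edgeR adjusted p = 0.257). In both genes the groups did not overlap.

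Of the genes that did not pass, the 10 nearest in each direction are given, leaving out predicted genes. Glipr1l3, a CAP-family gene of the testis, was at 31.5, 30.0 and 30.3 CPM in maternal dose 1 and 14.5, 16.1 and 13.4 CPM in paternal dose 1 (log2 fold change 1.06, edgeR adjusted p = 0.0533). Tsga8, an X-linked gene of haploid spermatids, was at 173, 177 and 179 CPM in maternal dose 1 and 149.5, 145 and 137 CPM in paternal dose 1 (edgeR adjusted p = 0.0707). Among the higher ones, Celf3, Tmem210, Myoparr, Olfr856-ps1, Tmem89, Tmem131l, Map1lc3a and Lars2 made up the rest, with adjusted p from 0.0533 to 0.126. The 10 closest with lower values were Cntnap5b, Ncl, Zfp61, Hnrnpa2b1, Pnisr, Wdr43, Mios, Slc18a2, Tc2n and Pus7, with adjusted p from 0.0702 to 0.137. Of these, Ncl encodes nucleolin, a protein of the nucleolus. Ncl was at 113, 104.0 and 104.4 CPM in maternal dose 1 and 125.7, 124.5 and 132 CPM in paternal dose 1. None of these 20 passed. The predicted lncRNA gene Gm10619, at 14.6, 12.0 and 9.15 CPM in maternal dose 1 and 7.38, 4.69 and 5.28 CPM in paternal dose 1, was also near (edgeR adjusted p = 0.0707).

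Markers of germ cell stages had medians on opposite sides of 0, although no member passed. The medians of the spermatid lists were towards maternal dose 1 and those of the spermatogonial lists towards paternal dose 1. Sums over a list, maternal against paternal dose 1, overlapped for undifferentiated spermatogonia (810.8 to 926 against 890.1 to 945.3 CPM). They also overlapped for differentiating spermatogonia (686.1 to 760.7 against 695.9 to 850.3 CPM) and elongating spermatids (25560 to 26370 against 22710 to 26020 CPM). Round spermatid sums did not overlap (8297 to 8391 against 7337 to 7943 CPM). These lists were chosen with earlier results of these data known, and the share of cells of a type and the RNA per cell cannot be told apart in whole testis. Over all genes, 6.18% were higher and 5.37% lower at an unadjusted p under 0.05, and 49.2% had a positive difference.

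Of 28 round spermatid genes, all tested, 27 had a positive difference and 12 reached that p, all higher (42.9%), with a median of 0.13. Spaca4, an acrosome membrane gene, was at 63.9, 70.8 and 64.8 CPM in maternal dose 1 and 57.3, 52.7 and 47.3 CPM in paternal dose 1 (log2 fold change 0.34, edgeR adjusted p = 0.137). Acrv1, another acrosome gene, was at 203, 183 and 179 CPM in maternal dose 1 and 173, 155 and 135 CPM in paternal dose 1. Of 27 tested elongating spermatid genes, of 28 listed, 25 had a positive difference and 11 reached that p, all higher (40.7%), with a median of 0.14. Txndc8 was at 85.1, 73.9 and 71.3 CPM in maternal dose 1 and 65.8, 61.8 and 53.3 CPM in paternal dose 1 (log2 fold change 0.35, edgeR adjusted p = 0.156). The protamine genes overlapped, with Prm1 at 1580, 1948 and 1719 CPM in maternal dose 1 and 1515, 1656 and 1537 CPM in paternal dose 1. Paternal dose 1 C had much weight here: without it, 6 round and 3 elongating spermatid genes reached that p, and the medians were 0.07 and 0.09.

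Of 18 tested undifferentiated spermatogonial genes, of 20 listed, 15 had a negative difference and 5 reached that p, all lower (27.8%), with a median of -0.19. That count was 3, with 1 higher, without paternal dose 1 C and 8 without paternal dose 1 B. Zbtb16, a transcription factor of spermatogonial stem cells, was at 9.27, 10.0 and 10.7 CPM in maternal dose 1 and 14.0, 11.0 and 13.2 CPM in paternal dose 1 (log2 fold change -0.35, edgeR adjusted p = 0.235). Of 13 differentiating spermatogonial genes, 11 had a negative difference and 4 reached that p, all lower (30.8%), with a median of -0.18. Kit, a receptor tyrosine kinase of this stage, was at 29.5, 28.8 and 24.8 CPM in maternal dose 1 and 34.4, 31.8 and 35.1 CPM in paternal dose 1. Its groups did not overlap (log2 fold change -0.29, edgeR adjusted p = 0.159). Meiotic prophase genes, 34 in all, had a median of -0.03, with 2 higher and 4 lower at that p. Against the control cross the medians of the undifferentiated list were -0.02 in maternal dose 1 and 0.23 in paternal dose 1, and those of the round spermatid list were 0.03 in maternal dose 1 and -0.12 in paternal dose 1.

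**Figure D2:**
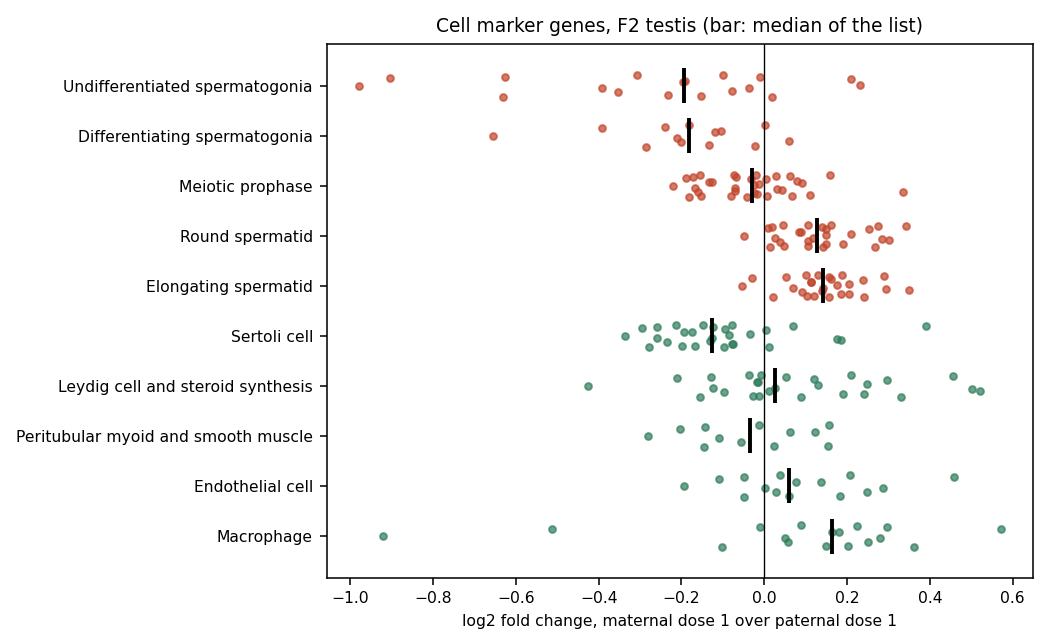
Log2 fold change of maternal dose 1 over paternal dose 1 for each tested gene of 10 cell marker lists (points), with the median of each list (bar); germ cell stages are in red and somatic cells in green. The round and elongating spermatid points lie mostly right of 0 (27 of 28 and 25 of 27), and the spermatogonial points mostly left of it.

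Sertoli cell genes had a negative median and macrophage genes a positive one, with no member past the threshold. Of 28 Sertoli cell genes, 22 had a negative difference and 5 reached that p, all lower (17.9%), with a median of -0.13, which was -0.08 without paternal dose 1 C. Wt1, a transcription factor of Sertoli cells, was at 51.3, 43.1 and 43.1 CPM in maternal dose 1 and 51.4, 52.2 and 54.2 CPM in paternal dose 1 (edgeR adjusted p = 0.246). Leydig cell and steroid synthesis genes, 27 in all, had a median of 0.03 and 0 members at that p; without paternal dose 1 A the median was -0.07, and without paternal dose 1 B it was 0.12. Star, the carrier of cholesterol into mitochondria, was at 111, 98.8 and 125 CPM in maternal dose 1 and 57.6, 116 and 98.3 CPM in paternal dose 1, overlapping groups in which paternal dose 1 A was low (edgeR adjusted p = 0.589). Macrophage genes, 17 in all, had a median of 0.16 with 2 higher at that p, and a median of 0.07 without paternal dose 1 A. Of the lists for other tissue, 6 of 16 epididymal and 5 of 11 ovarian genes passed the filter on low counts, with medians of -0.04 and 0.07. The epididymal gene Crisp1 was at most 1.09 CPM, in maternal dose 1 C.

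No gene of the lists tied to the drugs passed. Over all genes tested, 6.18% were higher and 5.37% lower at an unadjusted p under 0.05. Of 17 estrogen receptor and response genes tested (20 listed), 0 were higher and 1 lower (5.88%) at that p. Their median was 0.0026. Esr1, the estrogen receptor alpha gene, averaged 8.47 ± 0.83 CPM in maternal dose 1 and 8.31 ± 0.95 CPM in paternal dose 1 (SD, n = 3 each; edgeR adjusted p = 0.958). Of 22 cyclooxygenase and prostaglandin genes tested (26 listed), 1 was higher (4.55%) and 0 lower, with a median of 0.06. Ptgs1, which encodes a target of ibuprofen and diclofenac, averaged 0.75 ± 0.13 CPM in maternal dose 1 and 0.836 ± 0.25 CPM in paternal dose 1 (SD, n = 3 each). Ptgs2, the other cyclooxygenase gene, did not pass the filter on low counts. Of 26 drug and estrogen metabolism genes, 23 were tested, with 1 higher (4.35%) and 3 lower (13%) and a median of -0.02. Of 24 cholesterol synthesis and uptake genes, 23 were tested, with 1 higher (4.35%) and 0 lower and a median of -0.0036.

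Imprinted genes bear on the parental side of the design, since their copies from mother and father differ in activity. Of 26 paternally expressed imprinted genes tested (32 listed), 2 were higher (7.69%) and 4 lower (15.4%) at an unadjusted p under 0.05. Over all genes these shares were 6.18% and 5.37%. The median of the list was -0.02. Peg3, a zinc-finger gene of this group, was at 13.2, 12.1 and 12.0 CPM in maternal dose 1 and 15.5, 13.8 and 18.3 CPM in paternal dose 1 (edgeR adjusted p = 0.322). Of 23 maternally expressed imprinted genes tested (28 listed), 18 had a negative difference (21.7% positive, against 49.2% over all genes). At that p 0 were higher and 2 lower (8.7%). The median was -0.09, or -0.02 without paternal dose 1 C, -0.05 without maternal dose 1 A and -0.06 without paternal dose 1 B. Ube3a, a ubiquitin ligase gene that is imprinted in neurons, was at 101.6, 88.5 and 103 CPM in maternal dose 1 and 109.7, 105 and 106 CPM in paternal dose 1 (edgeR adjusted p = 0.431). No imprinted gene of either list passed.

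LncRNA genes were more often above 0 than protein-coding genes, while small nucleolar RNA (snoRNA) genes were more often below it. Of 2210 lncRNA genes tested, 1470 had a positive difference (66.5%) and 740 a negative one, with a median log2 fold change of 0.11; 258 were higher and 57 lower at an unadjusted p under 0.05 (11.7% and 2.58%). Of 16719 protein-coding genes the median was -0.01, with 893 higher and 957 lower (5.34% and 5.72%). Pseudogenes, 268 tested, had a median of 0.08. The 22 snoRNA genes tested had 8 positive and 14 negative differences, 0 higher and 2 lower at that p, and a median of -0.27. Their counts were very low. Together they took 0.00083 to 0.00092% of all counts in maternal dose 1 libraries and 0.00097 to 0.00108% in paternal dose 1 libraries. The 67 miRNA loci had a median of 0.08, which was 0.0030 without maternal dose 1 A, 0.012 without paternal dose 1 B and 0.17 without maternal dose 1 B. Leaving out 1 library at a time, an alternative chosen after seeing the data, gave lncRNA medians from 0.07 (without paternal dose 1 C) to 0.13 (without paternal dose 1 A). LncRNA genes took 2.21 to 2.31% of all counts in maternal dose 1 libraries and 2.04 to 2.21% in paternal dose 1 libraries. Against the control cross their median was -0.03 in maternal dose 1 and -0.12 in paternal dose 1.

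**Figure D3:**
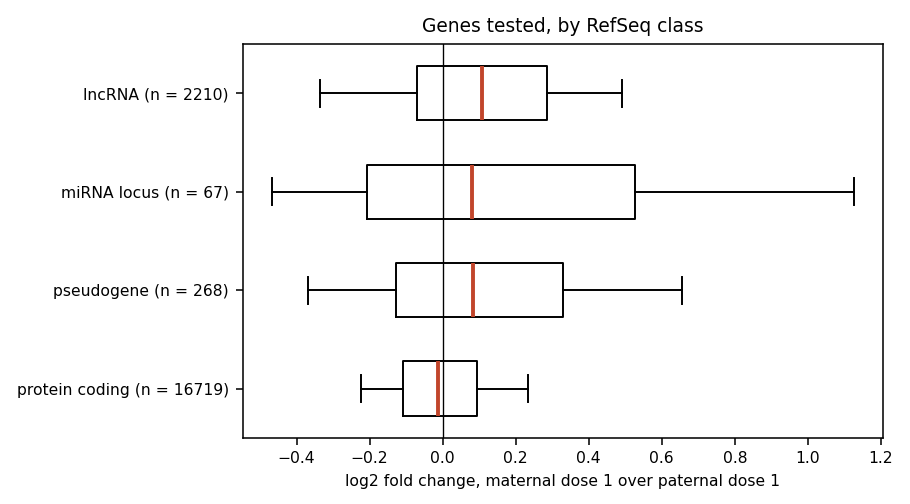
Log2 fold change of maternal dose 1 over paternal dose 1 by RefSeq gene class (red line, median; box, 25th to 75th percentile; whiskers, 10th to 90th percentile). The lncRNA box lies mostly right of 0, with a median of 0.11, and the protein-coding median is -0.01.

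The same mother-against-father contrast at dose 2 was tested in libraries that the dose 1 comparison does not use. Malat1 was at 269, 366 and 301.5 CPM in the maternal dose 2 cross, against 545, 720.1 and 729 CPM in the paternal dose 2 cross, so the maternal libraries were the lower ones. Its log2 fold change at dose 2 was -1.09 ± 0.20 (SE; edgeR adjusted p = 0.0443), against 1.32 at dose 1. Mir6236 was at 47.9, 68.5 and 40.5 CPM in maternal dose 2 and 87.2, 93.2 and 142 CPM in paternal dose 2 (edgeR adjusted p = 0.141). Rn45s was at 139.5, 166 and 165 CPM in maternal dose 2 and 163, 168 and 202 CPM in paternal dose 2, overlapping groups (log2 fold change -0.18, edgeR adjusted p = 0.412). Sirt2 at dose 2 ran from 133.6 to 183 CPM in the maternal cross and from 136 to 143 CPM in the paternal cross. In all, 23 genes passed at dose 2 (0.119%), 9 of them higher (0.0464%) and 14 lower (0.0722%). At dose 2 the libraries did not overlap in 21% of genes (11.2% higher and 9.73% lower).

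Testing the difference between doses directly, 56 genes passed (0.289%), 52 of them with a more positive value at dose 1 (0.268%) and 4 with a more negative one (0.0206%). The 52 were above 0 at dose 1 and below 0 at dose 2, and the 4 were the reverse, a pattern that choosing genes by this difference favours. Of the 8 genes, Malat1 (difference of log2 fold changes 2.41, edgeR adjusted p = 0.00162), Rn45s (1.17, 0.00216), Mir6236 (2.93, 0.0111) and Sirt2 (-0.58, 0.0272) passed this test. Lars2 passed it too (2.84, edgeR adjusted p = 0.0217), although it had not passed at either dose. Gins1 (0.91, 0.0531), Ube4bos3 (0.64, 0.104), Htatsf1 (-0.26, 0.160) and Gm17089 (-1.25, 0.180) did not pass. Sirt2 is the least stable of these: it passed without 4 of the 12 libraries of the 4 crosses, left out 1 at a time, and not without the other 8, with adjusted p up to 0.0779. Lars2 passed without 7 of the 12 (up to 0.0946) and Mir6236 without 11, failing without paternal dose 1 B (0.0543). Malat1 and Rn45s passed without each of the 12. None of these genes passed in the fit of all 27 testis libraries. Of the 54 called genes with a RefSeq class, 28 were not protein coding (51.9%), against 13.4% of the 19306 genes tested that have one. Over all 19379 genes, the values at dose 1 and at dose 2, which share no libraries, had a Pearson r of -0.0883 and a Spearman rho of -0.0802, as a description across genes.

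**Figure D4:**
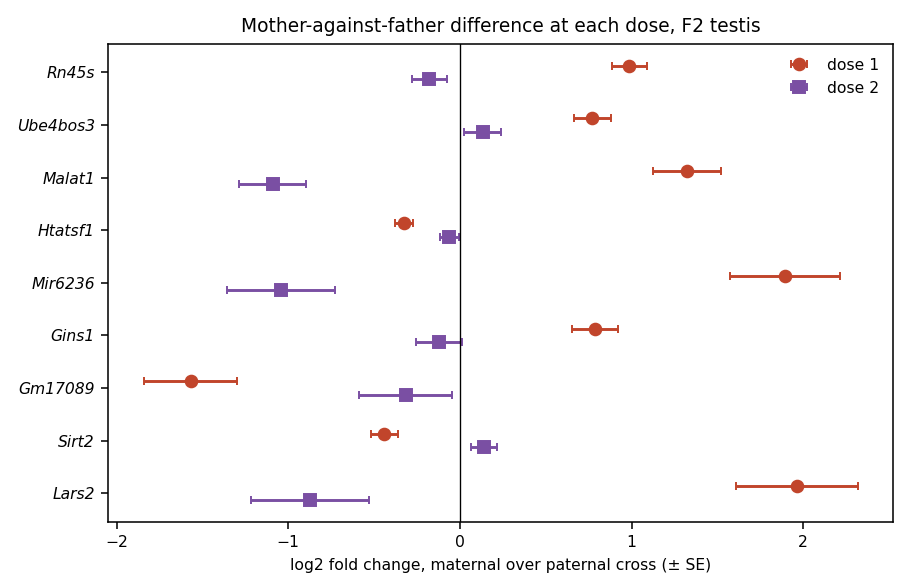
Log2 fold change of the maternal over the paternal cross (point, with SE) at dose 1 (circles) and dose 2 (squares) for the 8 genes that passed at dose 1 and for Lars2. Malat1, Mir6236 and Lars2 lie right of 0 at dose 1 and left of it at dose 2, and the test of the difference passed for them, Rn45s and Sirt2.

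In the F2 ovary the same contrast gave other values. Of 17400 genes tested, 1 passed (0.00575%), Gm9199, which was at 5.42, 3.09 and 5.58 CPM in maternal dose 1 and 0.0706, 0.0891 and 0 CPM in paternal dose 1 ovaries. The ovary libraries of the crosses did not overlap in 14.3% of genes (6.89% higher and 7.44% lower). Of the 8 testis genes, Ube4bos3 and Gm17089 were too low to be tested there, and none of the other 6 passed. Their log2 fold changes in ovary were 0.07 for Rn45s, -0.37 for Malat1, -0.54 for Htatsf1, 0.71 for Mir6236, -0.51 for Gins1 and 0.16 for Sirt2. Htatsf1 was spread widely in maternal dose 1 ovaries, at 100.2, 73.0 and 32.9 CPM, against 94.0, 105 and 100.3 CPM in paternal dose 1 ovaries. Without maternal dose 1 ovary A, 1079 genes passed in the ovary contrast. Over 16213 genes tested in both tissues, the testis and ovary values had a Pearson r of 0.0612 and a Spearman rho of 0.0456.

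The count of genes that passed in testis depended on single libraries. Leaving out maternal dose 1 A gave 1, maternal dose 1 B 2 and maternal dose 1 C 3. Leaving out paternal dose 1 A gave 15, and leaving out paternal dose 1 B or paternal dose 1 C gave 1. Of the 15 genes without paternal dose 1 A, 5 were among the 8. With the 6 libraries alone 2 genes passed, 1 of them among the 8, and with all 27 testis libraries 0 passed. DESeq2 called 152 genes, which included all 8.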

How the data were processed

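RNA was measured in 54 mouse testis and ovary libraries, and the 18 F2 testis libraries entered the fit. Whole-number counts per gene were deposited by the authors. Per the labels' protocols, RNA was extracted with Trizol and libraries were made with a stranded mRNA ligation kit. The submitters' processing notes list mm39, the counter featureCounts 2.0.3 and the aligners TopHat2 2.1.1 and Bowtie2 2.4.5. Neither annotation nor strand setting is stated in the labels. Genes were filtered with filterByExpr (minimum count 10), scaled by TMM and tested with the quasi-likelihood F test of edgeR 4.0.16 in R 4.3.3, with Benjamini-Hochberg adjustment at 0.05 over 19379 genes. The standard error is the log2 fold change divided by the square root of F. CPM values were computed from the counts with these scaling factors. Chromosome and gene class came from RefSeq by gene ID (19306 of 19379 matched). Members, lists and named genes were chosen with earlier results of these data known. Named are all genes that passed, the 10 nearest in each direction that did not (without overlap, at least 1 CPM in the higher cross and not predicted genes), 2 members of each list by p and a fixed set of 13, of which the text prints those it turns on; further list members are given as examples. Marker lists are described by counts, with no test of the list. With 3 against 3 libraries, the smallest two-sided exact permutation p is 0.1. Alternatives were RLE scaling, no filter, DESeq2 1.42.0, a block for the replicate letter, other sets of libraries and leaving out each library.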

Additional observations from a re-analysis of the deposited data

Results flagged for a closer look

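The mother-against-father difference in F2 testis differed between dose 1 and dose 2 for 56 genes by a test of the difference itself in edgeR. For Malat1 the dose 1 value exceeded the dose 2 value by 2.41 on the log2 scale, for Rn45s by 1.17, for Mir6236 by 2.93 and for Lars2 by 2.84. For Sirt2 the difference was -0.58. Kcnq1ot1, which did not pass at dose 1, had log2 fold changes of 0.37 at dose 1 and -0.78 at dose 2. The test of the difference passed (1.15, edgeR adjusted p = 0.0155). Leaving out 1 library at a time, it passed without 8 of the 12 (edgeR adjusted p up to 0.0669). With all 27 testis libraries it did not pass (edgeR adjusted p = 0.671). Leaving out maternal dose 1 A gave 10 genes, maternal dose 1 B 28 and maternal dose 1 C 67. Leaving out paternal dose 1 A gave 84, paternal dose 1 B 7 and paternal dose 1 C 10.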

How the results depend on the processing

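The 8 genes passed in edgeR's quasi-likelihood test under RLE scaling too. The dose 1 testis count was 12 with no filter, 152 with DESeq2, 27 with the replicate block, 2 with only the libraries compared and 0 with all 27 testis libraries, where the cause was not tested. Leaving out 1 library gave 1 to 15. For dose 2 it was 23, and 13 with RLE scaling, 477 with DESeq2, 280 with the replicate block, 47 with only the libraries compared, 0 with all 27 libraries and 0 to 19 leaving out 1 library. For the difference between doses it was 56, and 249 with DESeq2, 100 with the replicate block, 30 with only the libraries compared, 1 with all 27 libraries and 7 to 84 leaving out 1 library. In ovary it was 1, and 41 with DESeq2, 0 with only the libraries compared, 0 with all 27 ovary libraries and 1 to 1079 leaving out 1 library. Whether the letters mark a shared animal, litter or day is not stated. Same-letter correlations were 0.112, -0.0131 and 0.0652 between the dose 1 crosses and 0.0505, 0.0992 and 0.0817 between the dose 2 crosses. At dose 2 each library correlated best with its own letter, a hint from the data. At dose 1 paternal B correlated best with maternal C (0.0809). Over all 45 same-letter pairs of F2 testis crosses the median was 0.0407, against -0.0181 over 90 pairs of other letters. In F2 ovary these medians were 0.00463 and -0.0056. The correlations are of deviations from the cross mean, so same-letter and other-letter values are not independent. Of 1065 values of 89 named genes, 964 kept direction and side of the threshold, 50 lost and 42 gained a call, and 9 changed direction, in genes that did not pass. These were Crtam (0.15 without maternal A, 0.64 without paternal C, lowest -1.003 without maternal B), Esr1 (-0.029 without maternal A, -0.034 without paternal A, -0.0039 without paternal B, highest 0.13 without paternal C), Nlrp5 (-0.020 without maternal C, highest 0.37 without maternal A), Gdf9 (0.0079 without maternal C, 0.088 without paternal C, lowest -0.60 without maternal B) and Ptgs1 (0.0023 without paternal A, lowest -0.38 without paternal C). Of 360 list medians, 10 moved. No scaling moved the median of all genes by more than 0.0058.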

Other observations

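Between maternal and paternal dose 1 testes, interferon response genes (24 tested of 25 listed) had 20 positive and 4 negative differences. This was 83.3% positive, against 49.2% over all genes. Their median log2 fold change was 0.30. At an unadjusted p under 0.05, 2 members were higher (8.33%, against 6.18% over all genes), and none passed the adjusted threshold. The median was 0.14 without paternal dose 1 A and 0.45, with 0 members at that p, without paternal dose 1 C. Irf9, a transcription factor of the interferon response, was at 6.13, 12.7 and 9.29 CPM in maternal dose 1 and 3.87, 9.60 and 5.18 CPM in paternal dose 1, overlapping groups. Heat shock and immediate early genes, 21 in all, had 5 positive (23.8%) and 16 negative differences. Their median was -0.12, or -0.07 without maternal dose 1 A. Hspa8, a constitutive chaperone, was at 286, 259.9 and 248 CPM in maternal dose 1 and 308, 291 and 304.5 CPM in paternal dose 1, with no overlap and without passing.

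X-linked genes, 797 in all, had a median of -0.03 with 24 higher and 51 lower at an unadjusted p under 0.05, against 1164 higher and 982 lower of 18476 autosomal genes. Vomeronasal receptor genes, 40 in all, had 30 positive and 10 negative differences (75% positive, against 49.2% over all genes) and a median of 0.23. Crtam, a surface receptor of activated lymphocytes, varied within each cross, at 3.19, 23.7 and 13.7 CPM in maternal dose 1 and 2.38, 14.99 and 33.0 CPM in paternal dose 1. In the control cross it averaged 2.99 ± 0.45 CPM (SD, n = 3).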
